A study of Mus musculus with 16 samples.

Results

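The comparison described here set liver tumours against liver tissue of mice that had been treated with DEN (diethylnitrosamine) and fed a cornstarch diet, all taken at 9 months of age. The 5 libraries were chosen by their labels: 2 of cornstarch tumours and 3 of cornstarch livers, out of 16 libraries in 6 groups of the series. The livers also came from DEN-treated mice of the same age and diet, so the comparison is between tumour tissue and carcinogen-exposed liver, not untreated liver. A further 6 libraries of DEN-treated mice of 9 months on a high-fructose diet, 3 of tumour and 3 of liver, served to estimate the spread between libraries and to ask whether the tumour effect differed between the diets. The remaining libraries were livers of 5 months on the cornstarch or high-fructose diet. They were left out of the main fit and entered a fit of all 16 libraries, run as an alternative. The labels give no strain, sex or dose of DEN, and do not say which tumour came from which mouse, whether a sample was 1 nodule or 1 animal, or whether samples were pooled. The p-values therefore measure only the spread between these libraries, which may be partly technical. Replicates are numbered here in accession order, and the numbers pair nothing.

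DEN is a nitrosamine that cytochrome P450 enzymes of hepatocytes turn into a reactive form that alkylates DNA. The hepatocellular tumours that follow in mice often carry activating mutations of Hras or Braf, which feed the RAS-ERK signalling cascade. Liver tumours are known for switching genes of the fetal liver back on, such as the serum protein gene Afp and the cell surface proteoglycan gene Gpc3, and for losing parts of the adult hepatocyte programme, such as bile acid handling and drug metabolism.

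Each library held between 11232461 and 22771288 reads. All values below are normalised counts, that is, reads scaled to a common library size, and every log2 fold change was taken after adding 1 to each value, so that the changes of low genes come out too small. Testing was limited to genes that reached 10 in 2 or more of the 5 libraries. Both tissues carried the hepatocyte transcript set: Alb, the serum albumin gene, stood at 1141986, 942623 and 1123382 in livers 1, 2 and 3 and at 1820116 and 3423436 in tumours 1 and 2 (log2 fold change 1.23, SE 1.37, limma adjusted p = 0.637), and the 20 genes of secreted hepatocyte proteins had a median log2 fold change of 0.11, with 0 past the test. The bile duct markers Krt19 and Epcam stood between 1.82 and 34.5 in the 5 libraries. Albumin took 10.4% and 16.5% of the reads of the tumours and 5.46% to 6.25% of those of the livers, and mitochondrial transcripts 4.29% and 2.57% against 5.26% to 7.73%. Liver 3 stood apart in Xist, the transcript of the inactive X chromosome, at 226 against 2.89 to 9.22 in the other 4 libraries, while Y-linked genes summed to 1593 to 2602 in all 5. In this bulk tissue, fewer cells of a type and less RNA per cell cannot be told apart.

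Markers of liver tumours, RAS-ERK response genes and stress response genes were among those that rose in the tumours, and single genes of bile acid transport, drug metabolism and male-biased liver expression among those that fell. Of 13781 genes tested, 848 (6.15%) passed at an adjusted p under 0.05: 706 (5.12%) were higher and 142 (1.03%) lower in tumour. These shares are the background for every count of list members below. At an unadjusted p under 0.05 there were 3236 genes. The gains were the larger ones: 328 of the higher genes changed at least 4-fold and 80 at least 16-fold, against 16 and 0 of the lower genes. The median log2 fold change over all genes tested was -0.01. Of the higher genes, 129 had passed the filter on low values only through the tumours and so could hardly have been called in any other direction. The same holds for 7 of the 142 lower genes, which had passed it only through the livers. The tumour and liver groups did not overlap in any of the 848 called genes, nor in 40.9% of all genes tested (21.6% higher, 19.3% lower).

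The 2 tumours did not contribute equally. Tumour 2 lay farther from the livers than tumour 1 in 533 of the 706 higher genes and in 125 of the 142 lower ones. Without tumour replicate 2 only 56 genes passed (55 higher, 0.411% of those tested, and 1 lower, 0.00748%), 53 of them among the 848; without tumour replicate 1, 604 passed, 437 of them among the 848. Leaving out livers 1, 2 and 3 in turn gave 558, 359 and 657 genes. Where a group of 3 or 2 lost a library in this way, the remaining libraries were assumed to vary like the other groups of 9 months. In the counts given by list below, a call that could not be tested after an omission counts as not held. The sign of every called gene that could be tested was kept under each of these omissions. This was fixed in advance, because the groups did not overlap in any called gene. Among the genes named below, 12 of 83 calls that could be tested held without tumour 2, 62 of 83 without tumour 1, and 56, 39 and 62 of 90 without livers 1, 2 and 3. The 12 were Ddr1, Anxa2, Golm1, Ly6d, Cdkn2a, Tnfrsf10b, Phlda3, Dusp5, Atf3, Cd14, Col3a1 and Col1a2.

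**Figure D1:**
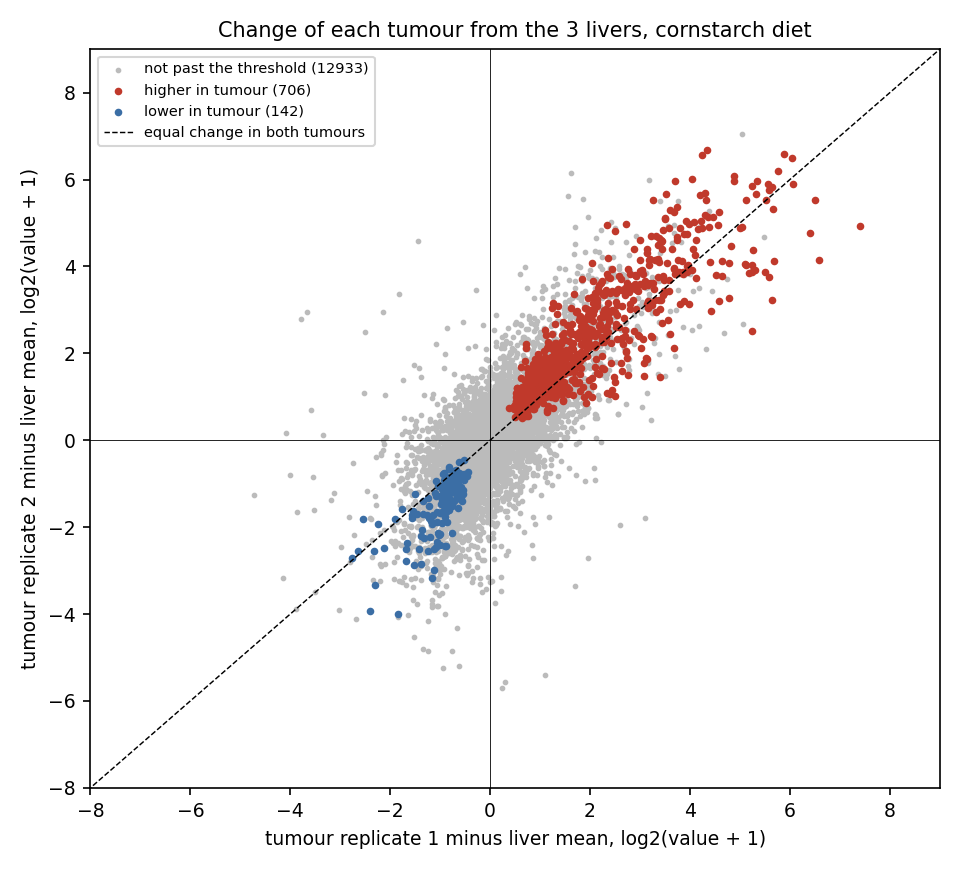
Difference of each tumour from the mean of the 3 livers, log2(value + 1), for the 13781 genes tested, with tumour replicate 1 on the x axis and tumour replicate 2 on the y axis. Red points are the 706 genes higher and blue points the 142 genes lower in tumour at a limma adjusted p under 0.05, and most of them lie farther from 0 on the axis of tumour 2.

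Ddr1, which encodes a collagen-binding receptor tyrosine kinase and was chosen after its values were seen, had the smallest adjusted p together with Psrc1. It stood at 23.1, 21.5 and 31.0 in the livers and 402 and 425 in the tumours (chromosome 17, 35681567 to 35704621; log2 fold change 4.00, SE 0.31, adjusted p = 0.000567). The 2 tumours were nearly alike and far above every liver. Psrc1, whose product binds the mitotic spindle and which passed the filter only through the tumours, stood at 9.64, 7.68 and 8.34 against 635 and 571 (log2 fold change 5.99, SE 0.46, adjusted p = 0.000567).

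Of the 30 markers of liver tumours and fetal liver that passed the filter, out of 38 listed, 14 rose and 0 fell, where 5.12% of all genes tested rose. The median log2 fold change of the 30 was 3.44, and 28 were positive. Taken alone, tumour 1 had a median difference from the livers of 2.83 and tumour 2 of 3.36; the median over genes of the mean of both tumours need not lie between these. Afp (chromosome 5, 90490737 to 90508907), which encodes the fetal counterpart of albumin, stood at 356, 41.5 and 276 in the livers and at 7577 and 9647 in the tumours. Both tumours were above every liver, and liver 2 was the lowest of the 5 (log2 fold change 5.73, SE 1.09, 52.98-fold, adjusted p = 0.0155). Gpc3 (chromosome X, 52272426 to 52613950) stood at 450.3, 43.0 and 183 against 2541 and 9940.4, with the 2 tumours themselves almost 4-fold apart (log2 fold change 5.03, SE 1.15, adjusted p = 0.0328). H19, the imprinted fetal long noncoding RNA, did not separate the groups: it stood at 2029.8, 59.9 and 860.0 in the livers, 1445 and 33598 in the tumours (log2 fold change 3.88, SE 1.87, adjusted p = 0.243). Tumour 1 lay inside the range of the livers and tumour 2 far above it. Igf2, the imprinted growth factor gene beside H19, was low throughout, at 19.3, 4.61 and 21.4 and 11.8 and 13.7.

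Several surface and secreted markers were more even between the tumours than Gpc3 and H19. Golm1, a Golgi membrane protein found in serum of patients with liver cancer, rose from 101, 61.5 and 70.3 to 1028 and 1876 (chromosome 13, 59634626 to 59675811; log2 fold change 4.18, SE 0.44, adjusted p = 0.00119). Anxa2, a calcium-dependent membrane-binding annexin, rose from 372, 313 and 342 to 3064 and 3165 (log2 fold change 3.18, SE 0.27, adjusted p = 0.000573), with the smallest SE among the markers named here. Ly6d, a GPI-anchored surface protein, rose from 146, 114 and 155 to 5219.9 and 2026, here with tumour 1 the higher (log2 fold change 4.56, SE 0.53, adjusted p = 0.00186). The tetraspanin gene Tspan8, chosen after its values were seen, stood at 192, 72.2 and 58.4 against 3109.7 and 2843 (log2 fold change 4.98, adjusted p = 0.0106). Prom1, the CD133 surface marker of progenitor cells, stood at 33.8, 13.8 and 23.8 against 278 and 687 (log2 fold change 4.23, adjusted p = 0.0154). Spp1, the gene of the matrix protein osteopontin, stood at 749, 940.4 and 980.3 against 7711 and 3279 (log2 fold change 2.51, adjusted p = 0.0317). Lcn2, a siderophore-binding protein also induced in inflammation, stood at 203, 226 and 1714 against 6582 and 6287 (adjusted p = 0.033), with liver 3 well above the other livers. Of the 14 calls, 4 held without tumour 2, 8 without tumour 1, and 9, 7 and 10 without livers 1, 2 and 3.

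Prom1 and Spp1 also belong to the bile duct and progenitor list, of whose 13 members past the filter 6 rose (median 1.33): these 2, Cd24a, Anxa4, Bicc1 and Krt18, and 0 of the 6 held without liver 2 or without tumour 2. The share of all genes tested that rose was 5.12%. Krt18, a keratin that hepatocytes express too, stood at 2249.7, 2874 and 4579 in the livers and 8624 and 7085 in the tumours (adjusted p = 0.0206). The defining duct genes were low and did not pass: Krt19 stood at 12.5, 6.15 and 8.34 against 21.0 and 1.82 (adjusted p = 0.886), Epcam at 13.5, 13.8 and 5.96 against 34.5 and 16.4 (adjusted p = 0.466), and Krt7, Cftr and Cldn4 were below the filter. The list's summed level was 8276 to 13014 in the livers and 29840 and 21115 in the tumours.

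**Figure D2:**
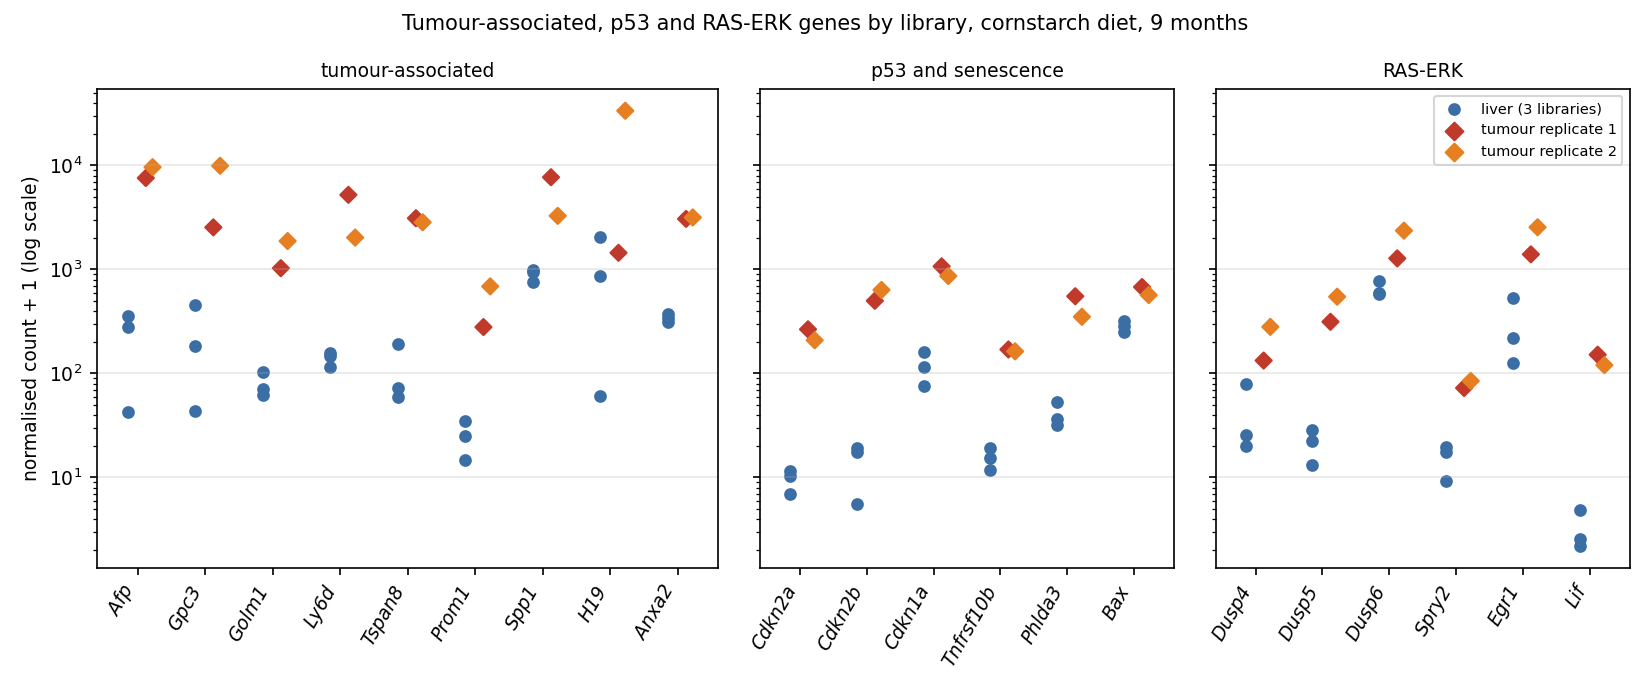
Normalised count + 1 on a log axis for tumour-associated, p53 and senescence, and RAS-ERK genes in the 3 cornstarch livers (blue circles) and the 2 cornstarch tumours (diamonds, red for tumour replicate 1 and orange for tumour replicate 2). All genes shown except H19 have both tumours above every liver, and for H19 tumour 1 (1445) lies below liver 1 (2030).

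RAS-ERK signalling switches on early response genes and its own inhibitors, the DUSP phosphatases and Sprouty proteins. In the tumours 11 of the 24 members of that list past the filter rose and 0 fell, against 5.12% and 1.03% of all genes. The median log2 fold change was 1.44. Dusp5, a nuclear phosphatase of ERK, rose from 21.2, 12.3 and 27.4 to 313 and 547 (chromosome 19, 53529109 to 53542431; log2 fold change 4.35, SE 0.45, adjusted p = 0.00119). Dusp6, its cytoplasmic counterpart, was expressed in every liver and rose less, from 779, 579 and 593 to 1278 and 2362 (log2 fold change 1.43, SE 0.27, adjusted p = 0.0142). Dusp4 stood at 79.1, 24.6 and 19.1 against 132 and 279.7 and the ERK pathway inhibitor Spry2 at 16.4, 18.4 and 8.34 against 71.5 and 83.8; both passed (adjusted p = 0.0274 and 0.0264) and were chosen after their values were seen, as were the 2 genes that follow. Egr1, an early response transcription factor, stood at 219, 124 and 528 against 1398 and 2547 (log2 fold change 2.95, adjusted p = 0.0189). Hbegf, an EGF receptor ligand, stood at 9.64, 18.4 and 11.9 against 53.8 and 35.5 (log2 fold change 1.69, adjusted p = 0.0273). In all of these genes both tumours were above the highest liver.

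Lif, a cytokine of the interleukin 6 family, passed the filter only through the tumours, with 3.86, 1.54 and 1.19 in the livers and 151 and 119 in the tumours (log2 fold change 5.49, SE 0.56, adjusted p = 0.00119). Ier3, an early response gene that also limits cell death, rose from 11.6, 10.8 and 28.6 to 90.9 and 125 (adjusted p = 0.00985). Myc, the growth-promoting transcription factor, stood at 53.04, 44.6 and 71.5 against 133 and 149 and missed the threshold (log2 fold change 1.33, SE 0.38, adjusted p = 0.067). Ccnd1, which encodes cyclin D1, did so too, at 522, 373 and 320.4 against 1213 and 3009.8 (log2 fold change 2.27, SE 0.60, adjusted p = 0.0534). Egfr, the receptor itself, stood at 18932, 6036 and 6438 against 5606 and 7238, with the tumours inside the range of the livers or just below it. Without tumour 2 only Dusp5 of the 11 calls held, and 7, 5 and 5 held without livers 1, 2 and 3, and 6 without tumour 1.

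The Cdkn2a-Cdkn2b locus, which encodes cell cycle inhibitors of the INK4 family and the p53 activator ARF, rose at both genes, which belong to the tumour marker list above. Cdkn2a (chromosome 4, 89274471 to 89294653), which passed the filter only through the tumours, stood at 10.6, 9.22 and 5.96 in the livers and 265 and 208 in the tumours (log2 fold change 4.65, SE 0.53, adjusted p = 0.00179), and gene-level counts do not tell its INK4a and ARF transcripts apart. Cdkn2b, the neighbour (chromosome 4, 89306299 to 89311039), stood at 18.3, 4.61 and 16.7 against 499 and 635 (log2 fold change 5.50, SE 0.81, adjusted p = 0.00546). The 2 tumours were close to each other in both genes. Targets of p53, the transcription factor that answers DNA damage, rose in 6 of 21 members, against 5.12% of all genes. The list median was 1.13, and the 6 were Tnfrsf10b, Phlda3, Bax, Zmat3, Btg2 and Pmaip1. Tnfrsf10b, a death receptor, rose from 18.3, 10.8 and 14.3 to 169 and 162 (log2 fold change 3.46, SE 0.37, adjusted p = 0.00126). Phlda3, an inhibitor of AKT, rose from 35.7, 52.2 and 31.0 to 552 and 349.8 (log2 fold change 3.47, SE 0.45, adjusted p = 0.00361). Bax, which permeabilises mitochondria in apoptosis, rose 2.18-fold, from 251, 284 and 318 to 677 and 567 (adjusted p = 0.00797). Cdkn1a, which encodes the cell cycle inhibitor p21, was above every liver in both tumours at 161, 115 and 75.0 against 1070.2 and 865, but missed the threshold (log2 fold change 3.09, SE 0.82, adjusted p = 0.0518). Of the 6 p53 target calls 2 held without tumour 2 (Tnfrsf10b and Phlda3), 4 without tumour 1, and 4, 5 and 4 without livers 1, 2 and 3.

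The integrated stress response, in which the transcription factor ATF4 switches on amino acid synthesis and transport genes, showed 8 higher members of 21 and 0 lower. The shares of all genes were 5.12% and 1.03%, and the list median was 1.13. The core sequence that ATF4 and its C/EBP partners recognise, TGATGNAA, was searched on both strands in the RefSeq promoters (GRCm38.p6, 250 bases before to 50 after the start), a search chosen after the results were seen. It occurred in 8 of the 20 matched list members, and in 4.51% of all 27025 genes (3.97% of 32851 promoters). It was in 4 of the 7 matched members that rose. Chac1, Vldlr, Slc7a11 and Fgf21 held it too and were not called. The list is of known genes of this response, so the share of its members with the core says nothing about the tumours. The 100 bases that hold it are shown for 3 of the members that rose, with the match in capitals and on the strand of the gene; in Atf3 and Nupr1 the match is on the opposite strand.
Asns (chr6:7693210-7693309, minus strand): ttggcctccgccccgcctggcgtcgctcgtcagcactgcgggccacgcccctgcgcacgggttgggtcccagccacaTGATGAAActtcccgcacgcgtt
Atf3 (chr1:191183374-191183473, minus strand): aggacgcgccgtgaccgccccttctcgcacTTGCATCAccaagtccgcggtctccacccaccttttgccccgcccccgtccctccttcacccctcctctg
Nupr1 (chr7:126625511-126625610, minus strand): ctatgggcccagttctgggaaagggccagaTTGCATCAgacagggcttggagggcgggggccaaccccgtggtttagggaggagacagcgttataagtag

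Asns, which encodes asparagine synthetase, rose from 39.5, 26.1 and 83.4 in the livers to 396 and 902 in the tumours (log2 fold change 3.73, SE 0.67, adjusted p = 0.0125). Atf3, a stress-induced transcription factor, rose from 26.04, 30.7 and 32.2 to 238 and 162 (log2 fold change 2.69, SE 0.38, adjusted p = 0.00443). Nupr1, a small stress-induced chromatin protein, rose from 25.1, 15.4 and 31.0 to 152 and 166 (log2 fold change 2.74, adjusted p = 0.0133). The livers and tumours were well separated in all of these. Trib3, a pseudokinase, and Ddit3, the CHOP transcription factor, both chosen after their values were seen, rose 3.53-fold and 2.54-fold (adjusted p = 0.0403 and 0.0309).

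All 3 enzymes of serine synthesis rose. Phgdh, its entry enzyme, passed the filter only through the tumours, at 8.68, 4.61 and 23.8 against 219 and 506 (chromosome 3, 98313170 to 98339990; log2 fold change 4.92, SE 0.95, adjusted p = 0.0163). Psat1, the aminotransferase of the next step, stood at 55.9, 7.68 and 58.4 against 395 and 1171 (log2 fold change 4.46, SE 0.85, adjusted p = 0.0153). Psph, the closing phosphatase, stood at 91.6, 46.1 and 78.6 against 167 and 299.7 (log2 fold change 1.68, adjusted p = 0.0305). A pair of mitochondrial folate enzymes rose with them, Aldh1l2 from 26.04, 12.3 and 8.34 to 122 and 227 (adjusted p = 0.0037) and Mthfd1l from 51.1, 15.4 and 94.1 to 329.8 and 474 (adjusted p = 0.0163). Tumour 2 was the higher of the tumours in all 5 genes, and liver 2 or liver 3 the lowest liver. The list of serine, folate and nucleotide synthesis, to which not all 5 genes belong, did not move as a whole. Of its 21 members 4 rose, against 5.12% of all genes, and the list median was 0.10. Without tumour 2, Atf3 alone of the 8 stress response calls and 0 of the 4 serine and folate calls held.

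Chaperones and folding enzymes of the endoplasmic reticulum, which the unfolded protein response induces, had positive log2 fold changes in 21 of 21 members. Of these 5 rose, against 5.12% of all genes: Hspa5, Pdia6, Dnajb9, Sdf2l1 and Creld2. The list median was 0.79, at 0.47 in tumour 1 and 1.19 in tumour 2. The endoplasmic reticulum stress element, CCAAT and CCACG separated by 9 bases of any kind, was likewise searched on both strands after the results were seen; CCAAT alone was in 41.1% of genes. The whole element occurred in 8 of 18 matched members of the list and in 37 of 27025 genes (0.137%), or 39 of 32851 promoters. It was in 3 of the 5 matched members that rose. Hsp90b1, Calr, Canx, Dnajc3 and Syvn1 held it too and were not called. The list is of known genes of this response, so the share of its members with the element says nothing about the tumours. Its place in 3 of the members that rose is shown in capitals, with the match in Creld2 on the opposite strand. Among the other motifs searched, the AP-1 site TGACTCA was in 2 of 19 matched RAS-ERK members and 5.95% of genes, and the antioxidant core TGACNNNGC in 6 of 28 matched NRF2 targets and 14.0% of genes. Of 26 matched mitosis genes, 20 held CCAAT and 18 held the cell cycle core TTTGAA, which was in 20.2% of genes.
Hspa5 (chr2:34771990-34772089, plus strand): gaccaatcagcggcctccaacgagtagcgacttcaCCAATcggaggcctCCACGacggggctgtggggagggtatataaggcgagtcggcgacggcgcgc
Pdia6 (chr12:17266461-17266560, plus strand): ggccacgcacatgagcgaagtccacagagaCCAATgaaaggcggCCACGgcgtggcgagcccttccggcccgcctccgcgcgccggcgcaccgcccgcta
Creld2 (chr15:88819490-88819589, plus strand): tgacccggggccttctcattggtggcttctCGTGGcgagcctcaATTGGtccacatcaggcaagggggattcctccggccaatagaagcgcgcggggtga

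Hspa5, which encodes the BiP chaperone and was chosen after its values were seen, stood at 11169, 9434 and 8384 in the livers and 15603 and 33908 in the tumours, with tumour 2 more than double tumour 1 (log2 fold change 1.26, SE 0.33, adjusted p = 0.049). Pdia6, a disulfide isomerase, stood at 3552, 3699 and 5684 against 8943 and 15309 (log2 fold change 1.47, SE 0.33, adjusted p = 0.0317). Creld2, a secreted stress-induced protein, stood at 396, 244 and 348 against 720.2 and 1540.4 (log2 fold change 1.70, SE 0.40, adjusted p = 0.0368). Sdf2l1, a partner of BiP, stood at 212, 164 and 301 against 607 and 1442 (log2 fold change 2.09, adjusted p = 0.0173). Of the 5 calls 0 held without tumour 2, 0 without liver 2, 2 without liver 1 or liver 3, and 5 without tumour 1.

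Cell division genes had positive log2 fold changes that seldom passed the test. All 28 mitosis genes past the filter had positive log2 fold changes, with a median of 1.57 that was 0.81 in tumour 1 and 2.44 in tumour 2. Of the 28, 13 did not overlap between groups, against 21.6% of all genes in that direction, and 6 had passed the filter only through the tumours. Ttk, a spindle checkpoint kinase and 1 of those 6, was the 1 that passed, at 5.79, 3.07 and 3.57 against 15.1 and 26.4 (adjusted p = 0.0483). The call did not hold without any 1 of the livers, and without either tumour Ttk missed the filter and could not be tested. Mki67, the proliferation marker, stood at 100.3, 109 and 35.7 in the livers and 90.9 and 397 in the tumours, so tumour 1 lay within the livers (log2 fold change 1.36, SE 0.76, adjusted p = 0.308). Of the 30 replication and G1/S genes 3 rose, against 5.12% of all genes (median 0.55). Uhrf1, which maintains DNA methylation at replication forks, rose from 21.2, 7.68 and 11.9 to 56.4 and 107 (adjusted p = 0.0125). Ccne1, cyclin E1, rose from 28.9, 12.3 and 19.1 to 105 and 209 (adjusted p = 0.0219), and Mcm2, a subunit of the replicative helicase, from 75.2, 84.5 and 72.7 to 202 and 170.3 (adjusted p = 0.0153).

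Of the other genes with the largest fold changes, most of those described here were near 0 in the livers. Krt20, Cdh17, Mep1a, Cdhr2, Alox5, Hydin and Cxcl17 all passed the filter only through the tumours, and all passed the test. Krt20, an intestinal keratin, stood at 18.3, 0 and 4.76 in the livers and 283 and 461 in the tumours. Cdh17, an intestinal cadherin, stood at 12.5, 4.61 and 0 against 715 and 128. Mep1a, a brush border protease, stood at 4.82, 0 and 1.19 against 46.3 and 239. Cdhr2, a protocadherin of microvilli, stood at 14.5, 4.61 and 4.76 against 298 and 461. The 2 tumours differed several-fold in Cdh17 and Mep1a, in opposite directions. Kif5c, a kinesin motor, stood at 84.9, 9.22 and 38.1 against 1316 and 2042 (log2 fold change 5.66, SE 1.19, adjusted p = 0.0231). Alox5, the enzyme that starts leukotriene synthesis, stood at 2.89, 4.61 and 3.57 against 419.8 and 212 (log2 fold change 6.01, SE 1.41, adjusted p = 0.0361). Hydin, a protein of motile cilia, stood at 4.82, 1.54 and 2.38 against 167 and 169. The chemokine gene Cxcl17 had 0 reads in all 3 livers and 83.3 and 26.4 in the tumours (adjusted p = 0.0349).

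In the insulin-like growth factor axis 2 of 19 members rose and 1 fell (median 0.10), against 5.12% and 1.03% of all genes. Of the 2 that rose, 1 had passed the filter only through the tumours. Igfbp1, a hepatocyte protein that binds insulin-like growth factors, stood at 2637, 330.4 and 1633 against 20113 and 32611 (chromosome 11, 7197782 to 7202546; log2 fold change 4.51, SE 0.69, adjusted p = 0.00704), and liver 2 was the lowest by far. Igf1, the growth factor itself, stood at 10806, 9579 and 10161 against 4196 and 1437 and missed the threshold (log2 fold change -2.05, SE 0.58, adjusted p = 0.0628). Ghr, the growth hormone receptor, fell from 10530.1, 11399 and 8152 to 5074 and 4039 (log2 fold change -1.13, SE 0.28, adjusted p = 0.0444). In cholesterol synthesis 22 of 24 members had positive log2 fold changes (median 1.25), and 2 rose, a share near the 5.12% of all genes: Sqle, squalene epoxidase, from 709.7, 131 and 821 to 2244 and 5672 (adjusted p = 0.043), and Srebf2, the transcription factor of the pathway, from 730.0, 439 and 775 to 1243 and 1836 (adjusted p = 0.0361). Neither held without tumour 2, liver 1 or liver 2, Srebf2 alone held without tumour 1, and both held without liver 3.

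The most abundant lipogenic genes differed widely between the livers. Scd1, the main hepatic stearoyl-CoA desaturase, stood at 1026744, 338008 and 8952 in the livers and 12143 and 238171 in the tumours, and Fasn, fatty acid synthase, at 63332, 2448 and 3435 against 4273 and 25672 (adjusted p = 0.758 and 0.903). Scd2, the isozyme of fetal liver, separated the groups instead, at 744, 218 and 572 against 3335 and 9567 (log2 fold change 3.64, SE 0.87, adjusted p = 0.0387). It was the 1 of 21 lipogenesis members that passed, a share near the 5.12% of all genes that rose. Of 21 genes of fructose and glucose handling, 0 passed (median -0.56); Khk, fructokinase, stood at 10855, 5639.5 and 4628 against 2809 and 3338 (log2 fold change -1.10, SE 0.43, adjusted p = 0.153).

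Some adult hepatocyte genes fell. In bile acid synthesis and transport 3 of 19 members past the filter did so and 0 rose (median -1.20), where 1.03% of all genes tested fell. Slc10a1, which takes bile acids up from blood, fell from 14628, 13524 and 14607 in the livers to 6574 and 1801 in the tumours (chromosome 12, 80953183 to 80968705; log2 fold change -2.05, SE 0.50, adjusted p = 0.0409). The livers agreed closely, and tumour 2 was far below tumour 1. Baat, which conjugates bile acids with amino acids, fell from 3093, 4061 and 4126 to 2183 and 1305 (adjusted p = 0.0444). Akr1d1, a reductase of bile acid synthesis, fell from 3059, 2093 and 2767 to 1530.5 and 588 (adjusted p = 0.0494). Cyp7a1, the rate-limiting enzyme of bile acid synthesis, spread too widely to compare, at 270.0, 2137 and 4317 and 1582 and 153 (adjusted p = 0.59). All 3 calls held without tumour 1, and 0 held without tumour 2 or without any 1 of the livers.

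Genes with male-biased expression in liver, kept up by pulses of growth hormone, had negative log2 fold changes in 25 of 27 members. The median was -1.65, with -0.99 in tumour 1 and -1.93 in tumour 2, and 3 fell, against 1.03% of all genes. Mup3, a major urinary protein gene whose near-identical relatives may share its reads, stood at 119599, 146844 and 78366 against 38641 and 15305 (log2 fold change -2.19, SE 0.46, adjusted p = 0.0226). Nudt7, a peroxisomal hydrolase of coenzyme A, fell from 10743, 9559.5 and 6879.9 to 3891 and 1900.3 (log2 fold change -1.71, SE 0.32, adjusted p = 0.015). Susd4, a complement regulator, fell from 513, 885 and 554 to 336 and 117 (adjusted p = 0.0444). Without liver 3, the library with the higher Xist value, Mup3 and Nudt7 still passed (adjusted p = 0.029 and 0.0206) and Susd4 did not (adjusted p = 0.0718). Liver 3 was the lowest liver in Mup3 and Nudt7, so leaving it out could only widen their difference from the tumours. Whether that library shaped these calls was not tested. Of the 3 calls, Nudt7 alone held without liver 1, 0 held without liver 2 or without tumour 2, and 3 held without tumour 1. Of 23 female-biased genes 3 rose, against 5.12% of all genes (median 0.35): Prom1, Abcd2 and Cyp2a4. The lipid transporter gene Abcd2 rose from 239, 295 and 621 to 1699.6 and 2529.7. Cyp2a4, a steroid hydroxylase that may share reads with its near copy Cyp2a5, rose from 6388, 844 and 9437 to 58532 and 117439 (adjusted p = 0.0296).

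Drug metabolism genes had a median of -1.37 over 33 members, at -0.31 in tumour 1 and -2.18 in tumour 2, and beside Cyp2a4 only Cyp2f2, a periportal cytochrome P450, passed, at 16669.8, 8980.2 and 8687 against 4901 and 1209.8 (log2 fold change -2.16, SE 0.53, adjusted p = 0.0425). With 1 of the 33 members higher and 1 lower, the share called was near the 6.15% of all genes. Cyp2e1, the P450 best known for activating DEN, stood at 80616, 141682 and 206879.7 against 101799.6 and 25154: tumour 1 lay within the livers and tumour 2 below them (adjusted p = 0.385). Onecut2, a hepatocyte transcription factor, fell from 2112, 1998 and 1875 to 766 and 278 (log2 fold change -2.11, SE 0.42, adjusted p = 0.0193), and Foxa3, another, rose from 702, 421 and 575 to 1048 and 1578 (adjusted p = 0.0465). The other 16 of that list did not pass, so 1 of 18 fell and 1 rose, against 1.03% and 5.12% of all genes.

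The largest decreases were in Ctcflos, Cyp46a1 and Lrtm1. Ctcflos, an RNA transcribed opposite Ctcfl whose reads cannot be told apart from that gene's where counting ignores strand, fell from 446, 636 and 476 to 95.9 and 32.8 (log2 fold change -3.17, SE 0.58, adjusted p = 0.0133). Cyp46a1, a cholesterol hydroxylase, fell from 97.4, 250.5 and 217 to 48.0 and 10.0 (adjusted p = 0.0206). Enzymes of amino acid, pyrimidine and fatty acid breakdown were among the next: Dhtkd1 of lysine breakdown fell 3.29-fold, Dpyd of pyrimidine breakdown 3.45-fold, Hacl1 of fatty acid alpha-oxidation 3.42-fold and Suox, sulfite oxidase, 3.25-fold. Cth, which makes cysteine, fell from 4579, 4301 and 3395 to 2263 and 1470.3 (adjusted p = 0.0229). It was the 1 of 16 methionine cycle members to pass (median -0.97), where 1.03% of all genes fell. Pigr, the receptor that carries immunoglobulin A into bile, fell from 24714, 25034 and 16801 to 10910.2 and 4097 (adjusted p = 0.0368).

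Most genes of the respiratory chain, fatty acid oxidation and the urea cycle had negative log2 fold changes, and none on those 3 lists passed the test. All 29 nuclear-encoded respiratory chain subunits had negative log2 fold changes (median -0.48), 22 of them did not overlap between groups against 19.3% of all genes in that direction, and 0 passed. The 9 mitochondrial transcripts tested had a median of -0.96. Fatty acid oxidation and ketogenesis genes were negative in 27 of 28 members (median -0.61; -0.17 in tumour 1 and -1.15 in tumour 2) and periportal amino acid breakdown and urea cycle genes in 24 of 25 (median -0.62), with 0 past the test in either. Otc, a urea cycle enzyme, came closest in the latter, at 8507, 7926 and 5910.3 against 3256 and 3786 (log2 fold change -1.07, SE 0.28, adjusted p = 0.05004). Pericentral and Wnt target genes had 0 of 22 past the test (median -0.92; -0.36 in tumour 1 and -1.47 in tumour 2), and Glul, glutamine synthetase, stood at 18390.1, 21347 and 18243 against 12989 and 6868 and the Wnt target Axin2 at 93.5, 189 and 125 against 89.2 and 25.5 (adjusted p = 0.673 and 0.484). Neither tumour was above the livers in these genes. Both tumours were above every liver in 2 members of that list: Tcf7, a transcription factor of Wnt signalling, at 52.1, 64.5 and 67.9 against 125 and 177, and the amino acid transporter gene Slc1a4, at 83.9, 215 and 88.1 against 351 and 354 (adjusted p = 0.167 and 0.227).

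**Figure D3:**
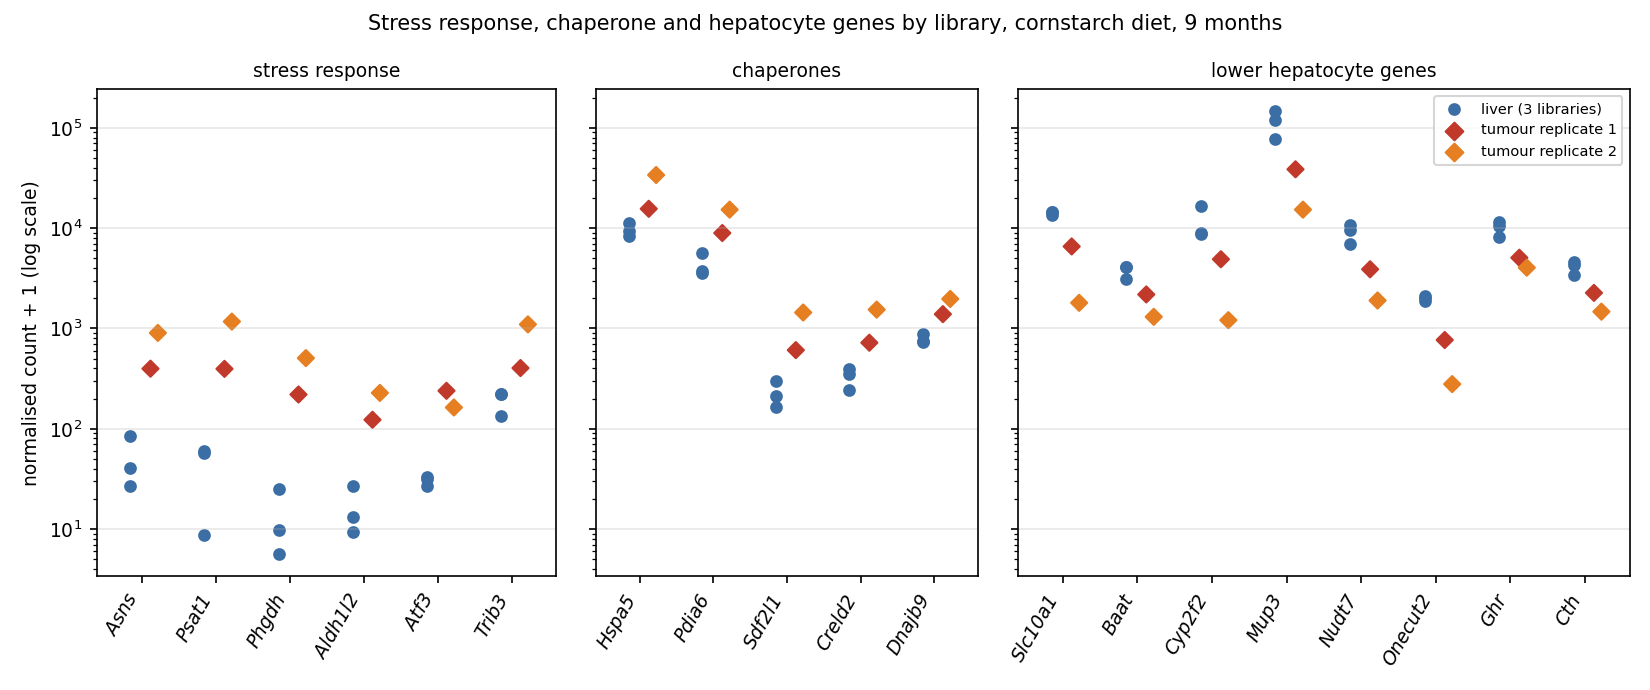
Normalised count + 1 on a log axis for stress response genes, endoplasmic reticulum chaperones and hepatocyte genes in the 3 cornstarch livers (blue circles) and the 2 cornstarch tumours (diamonds, red for tumour replicate 1 and orange for tumour replicate 2). Both tumours lie above every liver in the 11 genes on the left and below every liver in the 8 on the right, and tumour 2 is the more extreme in all but Atf3.

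Genes of other cell types changed in part. Matrix and stellate cell genes rose in 4 of 24 members, against 5.12% of all genes (median 0.70, with 1.06 in tumour 1 and 0.36 in tumour 2). The list's summed level was 6000 to 8106 in the livers and 14666 and 14033 in the tumours. Col4a1, a basement membrane collagen, rose from 619, 542 and 472 to 1323 and 1718 (log2 fold change 1.48, SE 0.21, adjusted p = 0.00493). The fibrillar collagen genes Col3a1, Col1a2 and Col1a1 were higher in tumour 1 than in tumour 2. Col3a1 stood at 372, 324 and 357 against 1772 and 742 (adjusted p = 0.028), and Col1a2 at 126, 112 and 166 against 754 and 271 (adjusted p = 0.0406). Col1a1 stood at 51.1, 53.8 and 95.3 against 733 and 180.4 (adjusted p = 0.0545), which missed the threshold. Another fibrillar collagen gene, Col5a3, which is not on the list, went the other way. It fell from 884, 1612 and 1165 to 366 and 208 (log2 fold change -2.10, SE 0.40, adjusted p = 0.0153). Col3a1 and Col1a2 are the calls that held without tumour 2, and they were lost without tumour 1 (adjusted p = 0.132 and 0.19).

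Macrophage and Kupffer cell genes had a median of -0.10 over 20 members, summing to 5067 to 13696 in the livers and 8919 and 8472 in the tumours. Gpnmb, a marker of lipid-laden macrophages that tumour cells can also express, rose, having passed the filter only through the tumours, and stood at 6.75, 3.07 and 20.2 against 347 and 131 (log2 fold change 4.61, SE 0.78, adjusted p = 0.00995). The tetraspanin gene Cd9 rose too, at 323, 418 and 262 against 989 and 1353 (adjusted p = 0.0125). The resident Kupffer cell genes Clec4f and Adgre1 did not pass. Clec4f stood at 2012, 1932 and 835 against 800.2 and 739, and Adgre1 at 339, 346 and 72.7 against 143 and 216. Cd14, the endotoxin co-receptor, which hepatocytes can express too, rose from 40.5, 40.0 and 23.8 to 363 and 327 (log2 fold change 3.31, SE 0.30, adjusted p = 0.000573). Endothelial genes had 1 of 18 past the test, Cd34 (median 0.18), a share near the 6.15% of all genes. T and NK cell, neutrophil and dendritic cell genes had 0 of 11, 6 and 7. Immunoglobulin genes were high in tumour 2: Igha, the heavy chain of immunoglobulin A, stood at 1945, 837 and 847 against 5732 and 20407 (adjusted p = 0.0987) and Igkc at 1277, 825 and 729 against 3664 and 13911 (adjusted p = 0.114). The B cell genes Ms4a1 and Pax5 stood between 2.52 and 23.05 in the 5 libraries. The part of these cells in the changes above was not tested.

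**Figure D4:**
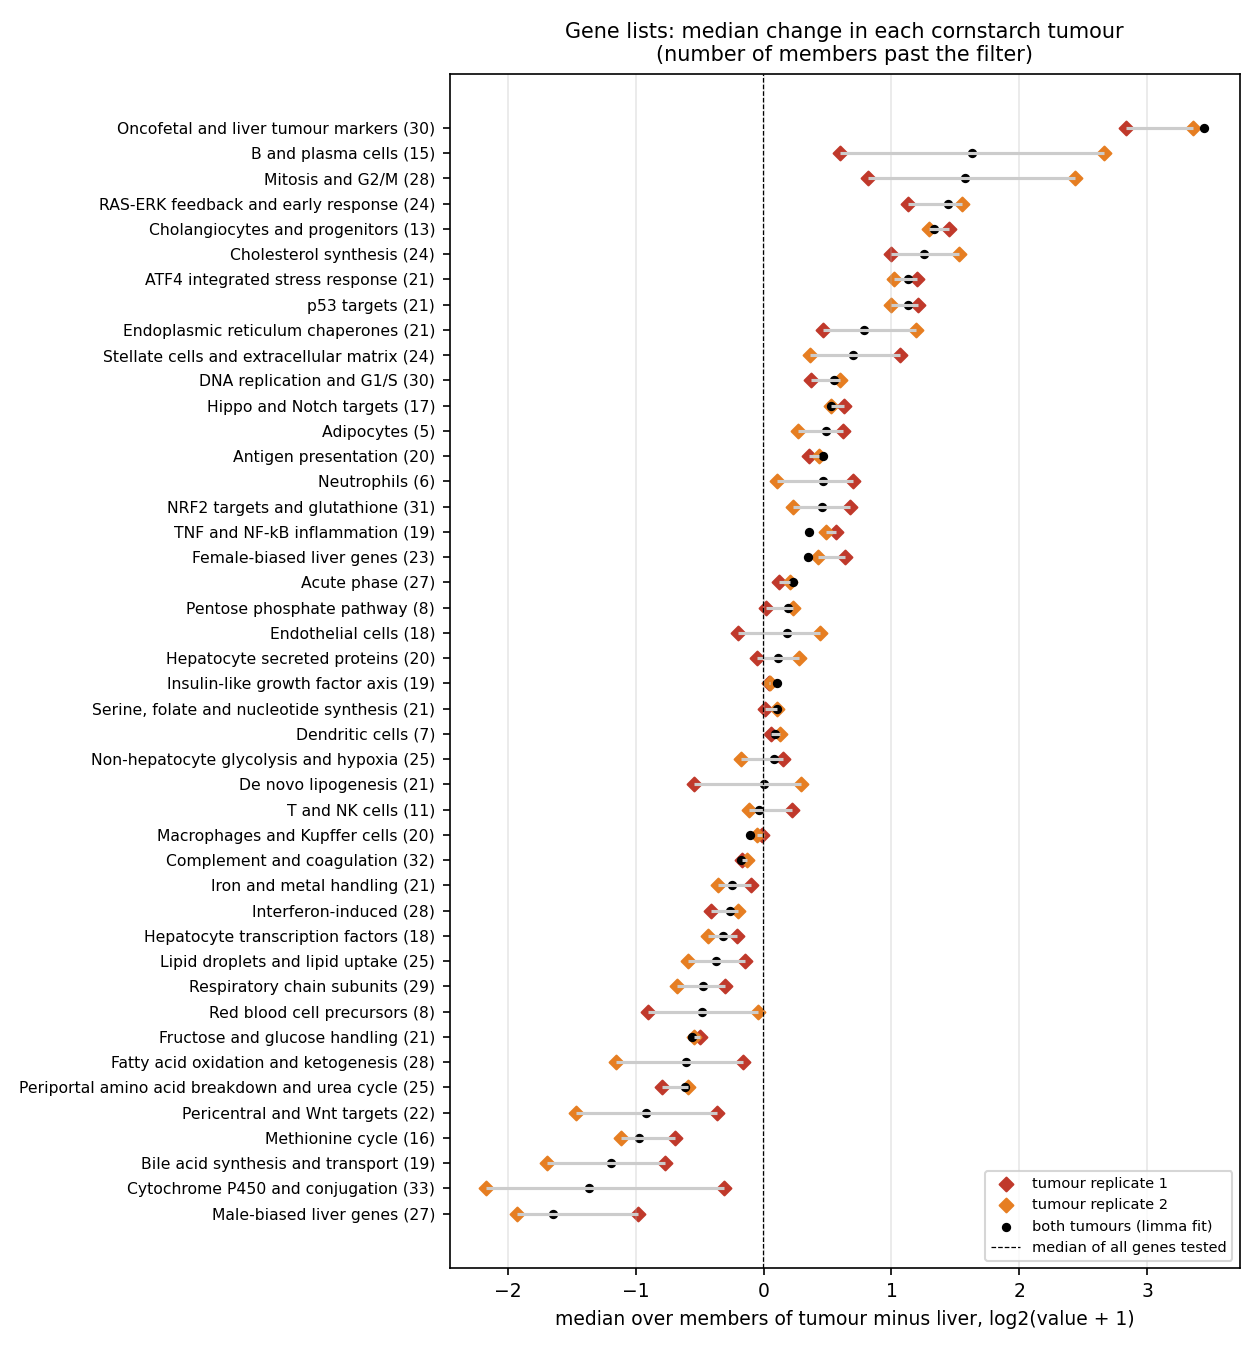
Median over the members of each gene list of the difference from the livers, log2(value + 1), for tumour replicate 1 (red), tumour replicate 2 (orange) and the fit of both (black), with the number of members past the filter in brackets and the median of all genes tested (-0.01) as a dashed line. Oncofetal genes lie highest (3.44) and male-biased liver genes lowest (-1.65), and the 2 tumours lie apart for drug metabolism (-0.31 and -2.18) and mitosis (0.81 and 2.44).

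Whether the tumour effect differed between the diets was tested with the fructose libraries. The 2 comparisons share no library, but both came from 1 fit of the 11 libraries of 9 months and so share each gene's estimated spread. Calls made under both diets are therefore not independent of each other. The difference passed for 0 genes (0.0%) with limma, with 394 at an unadjusted p under 0.05; edgeR's quasi-likelihood test on the recovered reads also gave 0 and DESeq2 gave 1, the predicted gene Gm42892. Under fructose 829 genes (6.02%) were higher and 634 (4.6%) lower in tumour. Of the higher genes 491 were shared, 69.5% of the cornstarch and 59.2% of the fructose calls, and of the lower ones 96, 67.6% and 15.1%. List medians under cornstarch and fructose, given side by side with no test, were 3.44 and 1.91 for tumour markers, 1.44 and 1.13 for RAS-ERK genes, 1.13 and 1.22 for ATF4 targets, 1.25 and 1.52 for cholesterol synthesis, -1.65 and -2.21 for male-biased genes and -1.37 and -2.19 for drug metabolism. Other lists had medians of opposite sign under the diets. Among them were female-biased genes (0.35 and -0.87), secreted hepatocyte proteins (0.11 and -0.32) and the insulin-like growth factor axis (0.10 and -0.28). The sign was the same under fructose for 703 of 706 and 140 of 142 of the cornstarch calls. The log2 fold change under fructose was 3.80 for Afp, 5.05 for Gpc3, 4.47 for Cdkn2b, 2.97 for Dusp5, 3.71 for Phgdh and -2.26 for Slc10a1, beside 5.73, 5.03, 5.50, 4.35, 4.92 and -2.05 under cornstarch.

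P2rx7, the ATP-gated channel of immune cells, had among the smallest p-values of the difference. It rose under cornstarch from 80.0, 76.8 and 66.7 to 299.5 and 517 (log2 fold change 2.39, SE 0.45, adjusted p = 0.0152) and had a log2 fold change of -0.21 under fructose, and the adjusted p of the difference was 0.999989. The fibrillar collagen genes Col3a1 and Col1a1 had different values under the diets, though not past the test. The log2 fold change of Col3a1 was 1.71 under cornstarch and 0.16 under fructose, and that of Col1a1 2.49 and 0.38. Col5a3 was lower in tumour under both diets, at -2.10 and -2.69. The median over the matrix and stellate list was 0.70 under cornstarch and -0.20 under fructose. A difference that misses the threshold with these few libraries does not show that the diets acted alike.

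**Figure D5:**
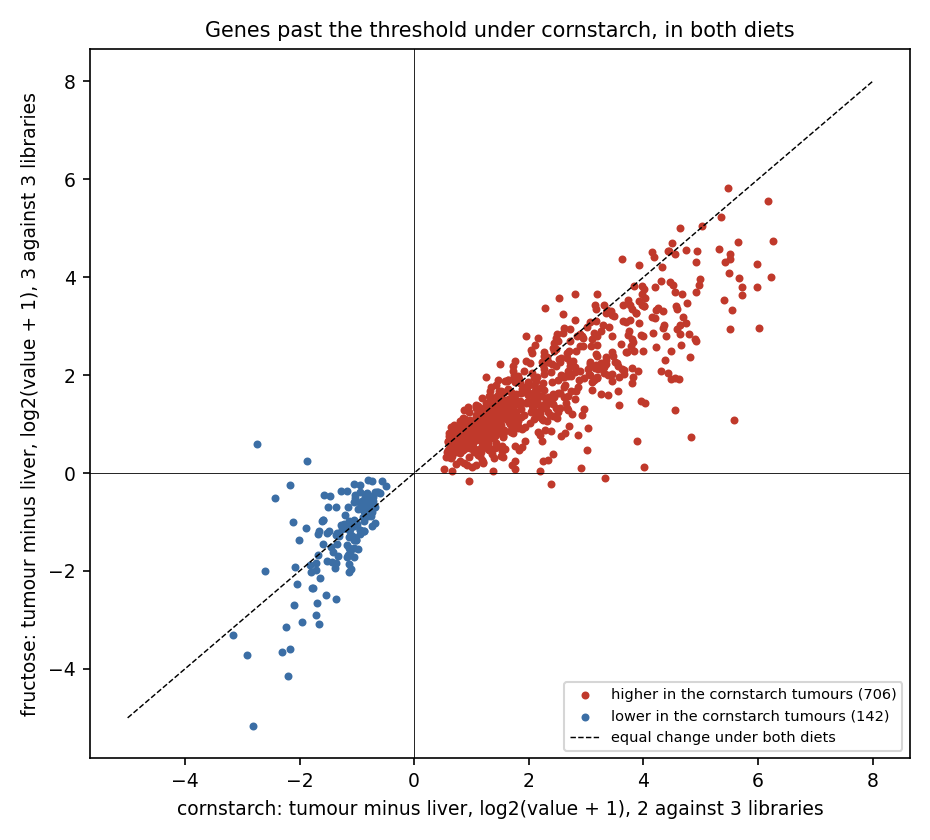
Log2 fold change of tumour against liver under cornstarch (x axis, 2 against 3 libraries) and under fructose (y axis, 3 against 3) for the 706 genes higher (red) and 142 lower (blue) in the cornstarch tumours. Nearly all points keep their sign (703 and 140); the genes were chosen by their cornstarch values, so lying nearer 0 on the fructose axis is not a measured difference.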

How the data were processed

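Liver and liver tumour RNA was sequenced from TruSeq mRNA libraries, per the labels' protocols. The submitters' processing notes name FastQC, Trim Galore, STAR, RSEM and DESeq2 and the genome build GRCm38, with no roles or versions, and for the strand setting of the counting the sources used here give nothing. The deposited table holds normalised counts, a signal that the authors made by dividing reads by 1 size factor per library; 100% of the values gave whole reads within 0.01 once multiplied back.

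Values were tested as log2(value + 1) with limma 3.58.1 in R 4.3.3 (group means of the 11 libraries of 9 months, trended variance, Benjamini-Hochberg threshold 0.05), over genes that reached 10 in 2 or more of the 5 libraries. The difference between diets was an interaction contrast in the same fit. The quasi-likelihood test of edgeR 4.0.16 and the Wald test of DESeq2 1.42.0 on the recovered reads, and other filters, scalings and sample sets, were run as alternatives, and the scripts were tested on simulated data. Gene coordinates are from the GENCODE M21 annotation (GRCm38), which held 46488 of the 47069 identifiers (98.8%), and promoters from RefSeq (GRCm38.p6).

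The genes, gene lists and comparisons were chosen with earlier results of these data known. Named genes are the 20 largest changes in each direction (mean of at least 50 in the higher group), the 4 smallest p-values of each list, the 5 smallest of the diet difference and a set of marker genes; of these, only some are described, and others are said to be chosen after their values were seen. Depth limits the low genes, and fold changes of genes near 0 in the livers depend on the pseudocount.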

Additional observations from a re-analysis of the deposited data

How the results depend on the processing

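The number of genes past the threshold (848, 706 higher and 142 lower) came to 1483 in a fit of all 16 libraries (1078 higher, 405 lower) and to 1737 with DESeq2 (1198 higher, 539 lower). The fit of all 16 libraries takes in the livers of 5 months. Of these, high-fructose replicate 1 and cornstarch replicate 1 had Xist at 12936 and 10883, with Y-linked genes summing to 0 and 1.91. The lower genes numbered 90 in a fit of the 5 libraries alone and 256 with library weights; the causes were not tested. The 5 libraries alone gave 586 genes, 455 of them among the 848, and lost 28 of the 90 calls named in the text, Slc10a1, Baat, Akr1d1, Mup3, Susd4, Cyp2f2, Cyp2a4, Sqle, Srebf2, Hspa5, Pdia6 and Ttk among them (adjusted p from 0.0503 for Cyp2a4 to 0.11 for Hspa5). Leaving out each library in turn gave 56 to 657 genes, 55 to 543 higher and 1 to 185 lower. Without tumour replicate 2, 12 of 83 calls named in the text held; without liver replicate 2, 39 of 90 did. The filter, pseudocount and scaling alternatives gave 705 to 909 genes. This includes a filter on a mean of at least 10 over the 11 libraries, chosen after seeing the data, with 817. The diet difference had 0 genes past the threshold, and 1 with DESeq2 (Gm42892, log2 difference -2.23, SE 0.48, adjusted p = 0.0429).

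Among genes named as not past the test, some changed sign. With each library left out in turn, the log2 fold change of Krt19 ranged from -0.51 to 1.19, of Igf2 from -0.64 to 0.36, of Fasn from -0.92 to 1.85, of Scd1 from -3.59 to 0.71, of Cyp7a1 from -3.14 to 0.22, of Egfr from -0.79 to 0.031 and of Adgre1 from -0.96 to 0.16. Krt19 missed the filter without liver 1 and without tumour 1, so its range covers only the other omissions. With edgeR and DESeq2, Krt19 came to 0.35 and 0.32, Igf2 to -0.26 and -0.28 and Fasn to -0.61 and -0.64. Igf2 came to -0.0517 with pseudocount 5, -0.038 with upper quartile scaling and -0.27 with quantile normalisation. No paired analysis was possible because the labels carry no replicate numbers and do not tie a tumour to a liver.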

Other observations

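Imprinted transcripts differed between the 2 tumours. The long noncoding RNAs Meg3 and Rian, neighbours on chromosome 12 that are expressed from the maternal allele, were high in tumour 1. Meg3 stood at 43.4, 26.1 and 204 in livers 1, 2 and 3 and at 1606 and 348 in tumours 1 and 2 (log2 fold change 3.58, limma adjusted p = 0.26). Rian stood at 36.6, 18.4 and 108 against 1436 and 274 (log2 fold change 3.87, adjusted p = 0.212). H19, on chromosome 7, had its high value in tumour 2, at 1445 and 33598 in tumours 1 and 2. None of these passed the test, and Meg3 and Rian were chosen after their values were seen.

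By chromosome, the median log2 fold change lay between -0.12 (chromosome 13) and 0.10 (chromosome 15) over the autosomes. The share of tested genes that rose ran from 3.34% (chromosome 14) to 7.91% (chromosome 15, 42 of 531) over the autosomes, against 5.12% of all genes. Next to the highest was chromosome 18, at 7.12% (23 of 323), with a median log2 fold change of -0.02. Chromosomes 15 and 18 were picked for their shares, and differences between chromosomes were not tested. Among NRF2 targets, the oxidative stress response genes, 1 of 31 rose, Akr1c18 (median 0.45). Interferon-induced genes had 0 of 28 past the test (median -0.26), and antigen presentation genes 1 of 20, H2-Eb1 (median 0.46).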
